A study of Mus musculus with 2 samples.

Results

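MHC class I and the genes that supply it with peptide were examined in prostaspheres with and without Sox9. The gene names of the array annotation gave 9 genes, which are the heavy chains H2-K1, H2-D1 and H2-T23, the light chain B2m, the transporter and loading genes Tap1, Tap2 and Tapbp, and the immunoproteasome subunits Psmb8 and Psmb9. They were chosen by name and not by a measured value. They were read by 18 of the 41174 probes on the array, and 17 of these were bright enough to be tested, of 22731 tested probes in all.

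Prostaspheres are spheres that prostate epithelial cells form in Matrigel. Their RNA was hybridized to 2 arrays of 1 slide, each with an RNA labeled with Cy5 and one labeled with Cy3, so that 4 RNAs were measured. The genotype comparison paired wild-type cells given tamoxifen (TAM) in Cy5 with ER-Sox9flox/flox cells given TAM in Cy3. The treatment comparison paired ER-Sox9flox/flox cells given vehicle in Cy5 with ER-Sox9flox/flox cells given TAM in Cy3. ER-Sox9flox/flox cells are homozygous for floxed Sox9 and for a Cre recombinase that TAM activates, spelled ERCre+/+Sox9flox/flox in the growth notes. The labels do not say whether the wild-type cells carry the Cre, and they call the vehicle-treated cells Sox9 null by genotype as well, so there the treatment tells the RNAs apart. All 4 RNAs came from a C57/Bl6J background by label, from urogenital sinus epithelium of embryos at 16 dpc, cultured with dihydrotestosterone for 6 days and then with 5 µM TAM or vehicle for 6 days. The study's methods, by contrast, start the prostasphere assay from adult prostate. Each RNA is 1 sample, and nothing in the labels says how many animals or cultures it pools. p-values therefore measure only the spread between these 2 arrays.

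Every log2 ratio below is Sox9-expressing over Sox9-deleted RNA, so a negative value means less RNA in cells with Sox9. This direction rests on titles, genotypes and treatments. The source names label Cy5 as SOX9 and Cy3 as control instead, and if SOX9 there meant the deletion, all signs would be opposite. Sox9 RNA itself was higher in Cy5 on both arrays at 2 of its probes, with means of 2.53 and 1.22. It was lower at the other, with a mean of -1.11. The keratins Krt5 and Krt14 were higher in Cy5 on both arrays, with means of 2.02 and 1.96. The study reports, with a check by RT-PCR, that expression of Krt5 and Krt14 depends on Sox9. In the direction used here both are higher with Sox9. The mean, its SD and its test are over the 2 arrays (n = 2). Brightness is the normalized intensity of a probe in 1 RNA, and it is compared between RNAs for 1 probe. It is not compared between probes, except to name the brightest or dim probes and to sum marker lists. The dyes were not swapped, and Sox9-expressing RNA was always the one in Cy5. Dye bias of a probe and a difference between the RNAs cannot be told apart. The RNAs of the genotype comparison also differ in mouse line, so there a difference in H2 haplotype between the lines and the loss of Sox9 cannot be told apart. The RNAs of the treatment comparison share the line and differ in exposure to TAM. All are bulk RNAs, in which fewer cells of a type and less RNA per cell cannot be told apart.

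MHC class I molecules carry short peptides from the cytosol to the cell surface, where CD8+ T cells read them. H2-K1 and H2-D1 encode the classical heavy chains of the mouse, H2-T23 encodes Qa-1, which presents leader peptides of other class I chains, and B2m encodes the light chain that every one of them needs to fold. Proteasomes cut the peptides, Tap1 and Tap2 form the pump that brings them into the endoplasmic reticulum, and Tapbp (tapasin) holds the empty molecule at the pump. Psmb8 (LMP7) and Psmb9 (LMP2) replace catalytic subunits of the proteasome in cells exposed to interferon. Most of these genes lie in the MHC on chromosome 17 of the mouse, and B2m lies on chromosome 2.

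The H2 heavy chains are close copies of each other, and the probes are short, so the sequences that read them are shown first. Capitals mark stretches of at least 15 bases that another probe of the array also holds, and each probe is written 5′ to 3′ on the strand of the transcript.
H2-K1, A_52_P474242: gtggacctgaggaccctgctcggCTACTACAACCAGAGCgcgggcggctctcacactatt
H2-K1, A_52_P50496: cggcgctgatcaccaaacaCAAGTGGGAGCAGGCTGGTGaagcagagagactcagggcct
H2-D1, A_52_P313279: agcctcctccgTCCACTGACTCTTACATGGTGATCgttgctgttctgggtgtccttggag
H2-D1, A_51_P496996: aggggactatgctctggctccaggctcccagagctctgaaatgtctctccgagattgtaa
H2-T23, A_51_P237754: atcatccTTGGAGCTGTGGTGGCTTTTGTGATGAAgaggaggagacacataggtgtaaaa
The capitals of the first H2-K1 probe are also in a probe for H2-Bl (16 bases) and those of the second in a probe for H2-Q10 (20 bases). The first H2-D1 probe shares 24 bases with a probe for H2-Q2, and the H2-T23 probe shares 28 bases with a probe for H2-Q7. The second H2-D1 probe shares no such stretch. The other 2 H2-K1 probes share the 25-base stretch TGACCTAGGGCTGATTTCTTGTTAA with each other. Transcripts of these copies may bind the same probe, so the values of the heavy chains are not certain to belong to 1 gene each. This holds also for a probe without a shared stretch, since probes were not compared with transcripts. In the annotation, which names build mm9 per the file headers, the 2 printed H2-K1 probes lie at chr17:34136478-34136724 and chr17:34136288-34136347 on the minus strand, the H2-D1 probes at chr17:35403132-35403191 and chr17:35403437-35403669 on the plus strand, and the H2-T23 probe at chr17:36167338-36167574 on the minus strand.

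H2-D1, a classical heavy chain, gave the lowest mean log2 ratio of the 9 genes. Its brightest probe read 18679 in wild-type RNA with TAM against 31616 in ER-Sox9flox/flox RNA with TAM, and 20356 in ER-Sox9flox/flox RNA with vehicle against 29469 in ER-Sox9flox/flox RNA with TAM. Both Sox9-deleted RNAs were brighter than both Sox9-expressing RNAs. The log2 ratio was -0.76 in the genotype and -0.53 in the treatment comparison, with a mean of -0.65 ± 0.16 (SD), a level 1.57-fold lower with Sox9 (limma adjusted p = 0.127), but with median centring in place of loess normalization the treatment value turned to 0.29. The probe that shares no stretch with another probe gave -0.77 and -0.54, a mean of -0.66 (limma adjusted p = 0.127). One more probe with the name H2-D1 (A_52_P246277) is annotated at chr17:36323454-36323516, far from the other 2, was not well above background in any of the 4 RNAs and was not tested.

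H2-K1, the other classical heavy chain, showed the same order of the 4 RNAs. Its brightest probe (A_51_P198434, chr17:34133055-34133114) read 12077 in wild-type RNA against 18612 in ER-Sox9flox/flox RNA with TAM, and 13073 with vehicle against 17653 with TAM. The log2 ratios were -0.62 and -0.43, with a mean of -0.53 ± 0.13 (SD), 1.44-fold lower with Sox9 (limma adjusted p = 0.141), and median centring turned the treatment value to 0.34. This probe is printed in 10 spots on each array, and the SD between spots was 0.0202 in the genotype and 0.0212 in the treatment comparison. Every spot was below 0 on both arrays, from -0.66 to -0.58 in the first and from -0.46 to -0.39 in the second. Spots of 1 array share their RNA, so this is the precision of the array and not of the cultures. The 4 probes of H2-K1 ranged from -0.66 to -0.46 in the genotype and from -0.43 to -0.28 in the treatment comparison, with adjusted p from 0.141 to 0.189 by limma.

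B2m, the light chain, was read by 1 bright probe (A_51_P129012, chr2:121978401-121978460). Its brightness was 5048 in wild-type RNA, 8699 in the ER-Sox9flox/flox RNA with TAM beside it, 6938 in ER-Sox9flox/flox RNA with vehicle and 7402 in the ER-Sox9flox/flox RNA with TAM beside that. Wild-type RNA stood apart as the lowest, and the pair of the treatment comparison was close. The log2 ratios were -0.79 and -0.09, a mean of -0.44 ± 0.49 (SD, limma adjusted p = 0.343), and with median centring the treatment value was 0.61. The spread between the arrays was larger than the mean. The other 2 B2m probes were dim, from 128 to 157 in brightness, and gave mean log2 ratios near 0 and of -0.14.

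H2-T23, the Qa-1 chain, had log2 ratios on both sides of 0. Its probe read 7146 against 7944 in the genotype comparison and 7634 against 7003 in the treatment comparison, and the Sox9-expressing and Sox9-deleted RNAs overlapped. They were -0.15 and 0.12, with a mean of -0.01 ± 0.20 (SD, limma adjusted p = 0.952).

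**Figure D1:**
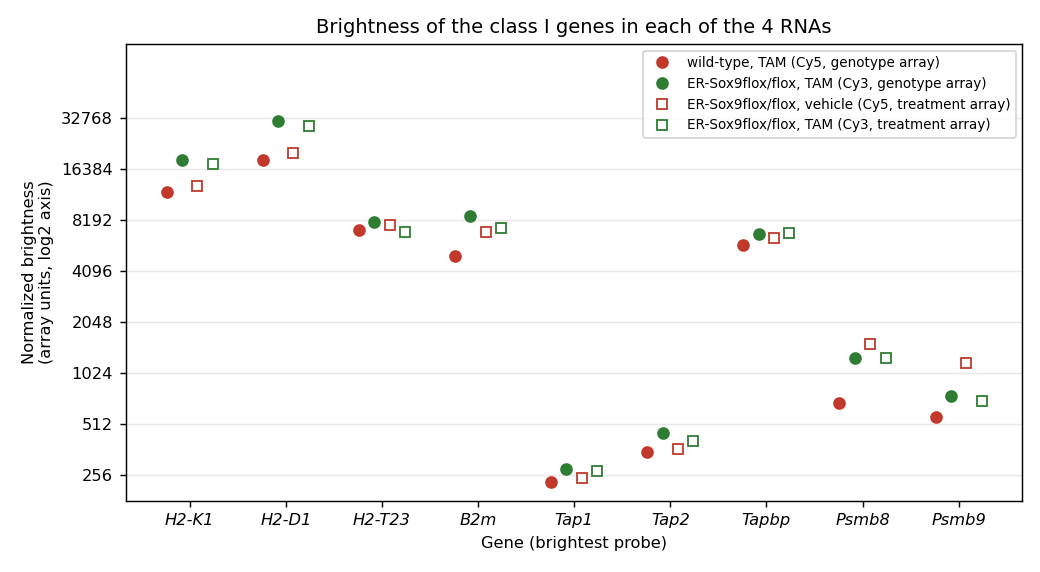
Normalized brightness (array units, log2 axis) of the brightest probe of each of the 9 genes in the 4 RNAs; red marks Sox9-expressing and green Sox9-deleted RNA, filled circles the genotype and open squares the treatment array. For H2-K1 and H2-D1 both green marks lie above both red marks, though not in the ratio of the treatment array under median centring, and for Psmb8 and Psmb9 the wild-type mark is the lowest and the vehicle mark the highest. Heights are not comparable between genes.

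The peptide loading genes differed by at most 1.29-fold on either array. Tap2, a chain of the peptide pump, read 350 against 451 and 365 against 408, with log2 ratios of -0.36 and -0.16 and a mean of -0.26 ± 0.14 (SD, limma adjusted p = 0.275). Tap1, its partner, read 231 against 278 and 245 against 269, with log2 ratios of -0.27 and -0.14 (mean -0.20 ± 0.09, limma adjusted p = 0.314). Tapbp read 5809 against 6823 and 6436 against 6845, with log2 ratios of -0.23 and -0.09 (mean -0.16 ± 0.10, limma adjusted p = 0.392). In each of the 3, the Sox9-expressing RNA was the dimmer on both arrays, and with median centring each was the brighter in the treatment comparison, where Tap1 and Tap2 were at -0.13 and -0.08 and Tapbp at 0.22 relative to the median of all tested probes. Tap1 and Tap2 are dim probes, for which the constant of 50 added to every brightness understates the log2 ratio.

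Psmb8 and Psmb9, the inducible proteasome subunits, had opposite signs on the arrays. Psmb8 read 679 in wild-type RNA against 1250 in ER-Sox9flox/flox RNA with TAM, and 1522 in ER-Sox9flox/flox RNA with vehicle against 1250 in ER-Sox9flox/flox RNA with TAM. The Sox9-deleted RNAs lay together, and the Sox9-expressing RNAs lay on either side of them. The log2 ratio was -0.88 in the genotype and 0.28 in the treatment comparison (mean -0.30 ± 0.82, SD, limma adjusted p = 0.647), and a second probe of the gene gave -0.86 and 0.23. Psmb9 read 561 against 751 and 1171 against 700, with log2 ratios of -0.42 and 0.74 (mean 0.16 ± 0.82, limma adjusted p = 0.81). Set across the arrays, ER-Sox9flox/flox RNA with vehicle was 2.24-fold as bright as wild-type RNA for Psmb8 and 2.09-fold for Psmb9, while the Sox9-deleted RNAs differed by 1.00-fold and 0.93-fold. A comparison across arrays has no replicate and was not tested. The probes are as follows, with no capitals because no other probe holds a stretch of theirs.
Psmb8, A_51_P345367: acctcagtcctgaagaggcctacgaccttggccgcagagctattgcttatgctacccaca
Psmb9, A_51_P369803: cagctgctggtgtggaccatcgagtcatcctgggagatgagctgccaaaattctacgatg
They lie at chr17:34337771-34337830 on the plus strand and chr17:34319174-34319233 on the minus strand in mm9. From Psmb9 through Tap1 and Psmb8 to Tap2, the probes of these 4 genes span 33.1 kb of chromosome 17. The log2 ratios of their neighbours Tap1 and Tap2 are those given above.

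Most markers of stroma had the same signs as Psmb8 and Psmb9. Of 11 stroma and endothelium markers 9 were tested. Of these, 6 were below 0 in the genotype and above 0 in the treatment comparison, as were 19.2% of all tested genes. The list had a median log2 ratio of -0.77 in the genotype and 0.50 in the treatment comparison. Col1a1, a fibrillar collagen chain, had -1.26 and 1.03, and Col3a1 had -1.63 and 1.13. The extremes of the list by mean were Dcn (decorin) at -0.77 and -0.14 and Col1a2 at -0.84 and 1.07. The summed brightness of the list was 24335 in wild-type RNA, 46084 and 39109 in the ER-Sox9flox/flox RNAs with TAM of the genotype and treatment comparison, and 66796 in ER-Sox9flox/flox RNA with vehicle. The sum takes in the untested markers and is weighted toward bright probes. Col1a2, the brightest, held 10632, 18993, 15030 and 31655 of it in the same order. As for Psmb8 and Psmb9, wild-type RNA was the lowest and ER-Sox9flox/flox RNA with vehicle the highest. Pecam1 and Tek, which mark endothelium, were not well above background in any RNA. Cdh5 and Kdr, which also mark it, were well above background in all RNAs but dim. Their brightness was 141 to 168 and 163 to 189. Cdh5 gave -0.12 and -0.16, and Kdr gave 0.08 and -0.09. The part of stromal RNA in the values of Psmb8 and Psmb9 was not tested.

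**Figure D2:**
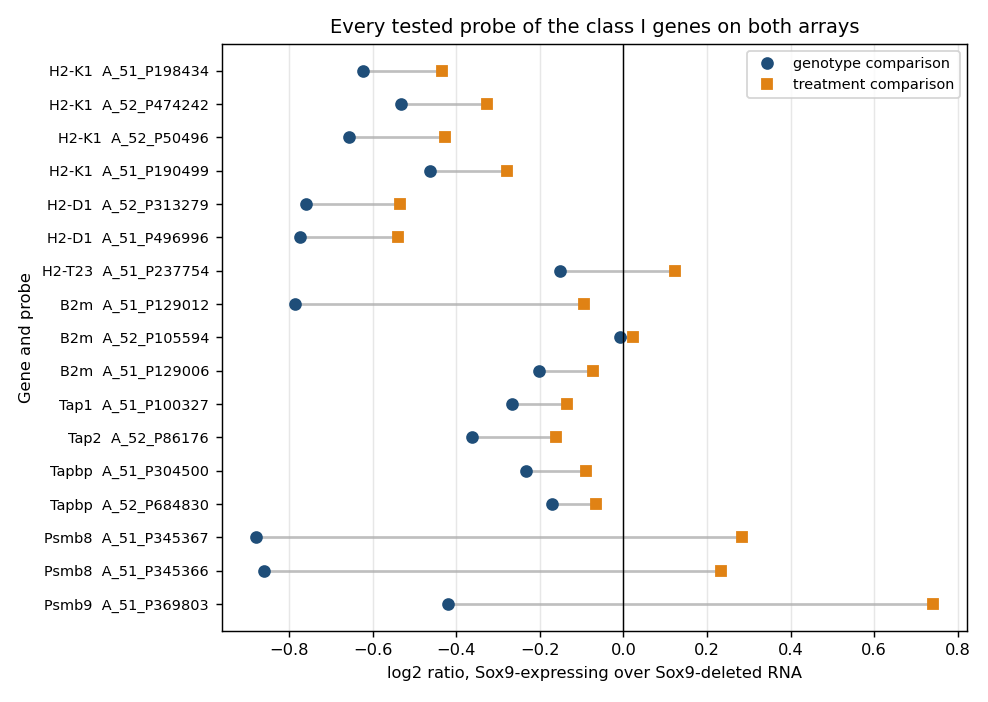
log2 ratio of Sox9-expressing over Sox9-deleted RNA for each of the 17 tested probes, with circles for the genotype and squares for the treatment comparison and a grey line joining the 2 arrays of a probe. Probes of H2-K1 and H2-D1 lie left of 0 on both arrays (the treatment values lie right of 0 under median centring), whereas Psmb8 and Psmb9 lie on both sides of 0.

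No probe of the 9 genes passed the test across all probes. limma gave an adjusted p under 0.05 to 0 of 17 probes, where 0.0088% of all tested probes had one (2 of 22731), and the methods' t-test gave 0 probes of all after adjustment. At an unadjusted p under 0.05, 7 of the 17 probes were lower with Sox9 by limma, beside 8.05% of all tested probes. These were the 6 tested probes of H2-K1 and H2-D1 and the Tap2 probe. Several of the 6 read the same gene, and all share the same 4 RNAs, so they do not count as 6 independent values. With the brightest probe standing for a gene, no member was at least 2-fold apart in the same direction on both arrays, where 0.562% of all 13711 tested genes were. The log2 ratio was below 0 on both arrays for 6 of 9 genes, against 34.4% of all tested genes, and above 0 on both for 0 of 9, against 33%, but with median centring it was below 0 on both arrays for 0 of 9 and for 10.3% of all tested genes. That setting shifts the whole treatment array, and relative to the array medians 4 of 9 genes (H2-K1, H2-D1, Tap1 and Tap2) and 30.8% of all were lower on both arrays. H2-T23, Psmb8 and Psmb9 were below 0 in the genotype and above 0 in the treatment comparison, as were 19.2% of all tested genes. For Psmb8 and Psmb9 the treatment log2 ratio exceeded the genotype one by at least 1, as for 2.33% of all tested genes. The median over the 9 genes was -0.42 in the genotype and -0.09 in the treatment comparison, and -0.01 and 0.01 over all tested genes.

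**Figure D3:**
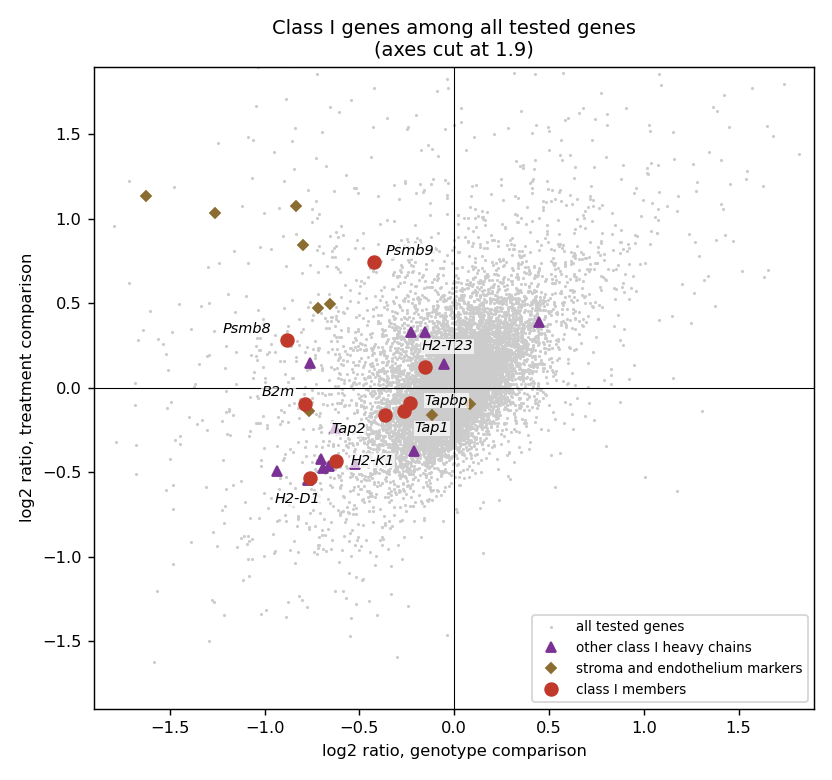
log2 ratio of the genotype comparison (x axis) against the treatment comparison (y axis) for all tested genes (grey), with the 9 class I genes (red circles), other class I heavy chains (purple triangles) and markers of stroma and endothelium (brown diamonds); 61 of 13711 genes lie outside the axes. H2-K1 and H2-D1 lie at the lower left among other heavy chains, a place they leave with median centring, and Psmb8 and Psmb9 lie at the upper left, where most stroma markers lie.

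The other class I heavy chains were read as a list. Of 27 genes 18 are on the array by name and 13 were tested. Of these, 8 had a log2 ratio below 0 and 1 above 0 on both arrays, against 34.4% and 33% of all tested genes. By limma, 0 passed an adjusted p of 0.05 and 9 had an unadjusted p under 0.05, beside 19.8% of all tested genes. With median centring 3 of the 13 were below 0 on both arrays, against 10.3% of all tested genes. The list's median was -0.63 in the genotype and -0.38 in the treatment comparison. H2-Q8, a Qa-2 type chain, was the lowest at -0.94 and -0.49 (mean -0.71 ± 0.31, SD). Cd1d1, which presents lipids and lies outside the MHC, was the highest at 0.45 and 0.39 (mean 0.42 ± 0.04, SD, limma adjusted p = 0.153). H2-Q7 gave -0.77 and -0.55, H2-Q2 gave -0.70 and -0.42, and H2-Bl gave -0.52 and -0.45, and their probes share a stretch with those printed above. H2-Q5, whose probe shares none with a member probe, gave -0.69 and -0.48. Probes were compared with probes and not with transcripts, so a probe without a shared stretch may still bind another heavy chain. The genes counted in this list are therefore not certain to be independent of each other or of H2-K1 and H2-D1. The H2-T23 probe shares its stretch with the H2-Q7 probe, and their values differed on both arrays.

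Other genes of the pathway were read in 3 further lists. Of 10 further tested genes of peptide loading and trimming, 5 were below 0 and 2 above 0 on both arrays and 1 had an unadjusted p under 0.05. The median of their means was -0.02. Npepps, a cytosolic aminopeptidase, was the lowest (mean -0.25) and Calr (calreticulin), a chaperone of the heavy chains, the highest, at -0.15 and 0.73. Of 5 tested immune subunits and activator subunits of the proteasome, 0 were below 0 and 3 above 0 on both arrays, and the median of their means was 0.05. Psmb10, a further inducible catalytic subunit, gave -0.26 and 0.19, and the activator subunit Psme3 had the highest mean of the list, 0.20. Of the 3 constitutive catalytic subunits that Psmb8, Psmb9 and Psmb10 replace, 2 were below 0 on both arrays, from Psmb5 (mean -0.25) to Psmb6 (mean -0.02), with a list median of the means of -0.20. With median centring 0 genes of each of these 3 lists, and 1 of the regulators below, were below 0 on both arrays. The share was 10.3% over all tested genes. Over these lists, the other heavy chains and the regulators below, 49 genes were tested. Of these, 21 were below 0 and 10 above 0 on both arrays, against 34.4% and 33% of all tested genes. By limma 0 passed the adjusted p, and 12 lower and 3 higher genes had an unadjusted p under 0.05. The other heavy chains held 8 of the 21 genes below 0 and 9 of the genes at that unadjusted p. At that p, peptide loading and trimming held 1, the immune and activator subunits 0, the constitutive subunits 1 and the regulators 4. Of all tested genes 9.32% were lower and 10.5% higher at that unadjusted p.

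Regulators of class I and interferon signalling had values on both sides of 0. Of 18 tested genes, 6 were below 0 and 4 above 0 on both arrays, against 34.4% and 33% of all tested genes. By limma, 4 had an unadjusted p under 0.05, beside 19.8% of all tested genes. The median of the list's means was -0.05. Rela, the p65 subunit of NF-kappaB, had the lowest mean of the list, -0.37.

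**Figure D4:**
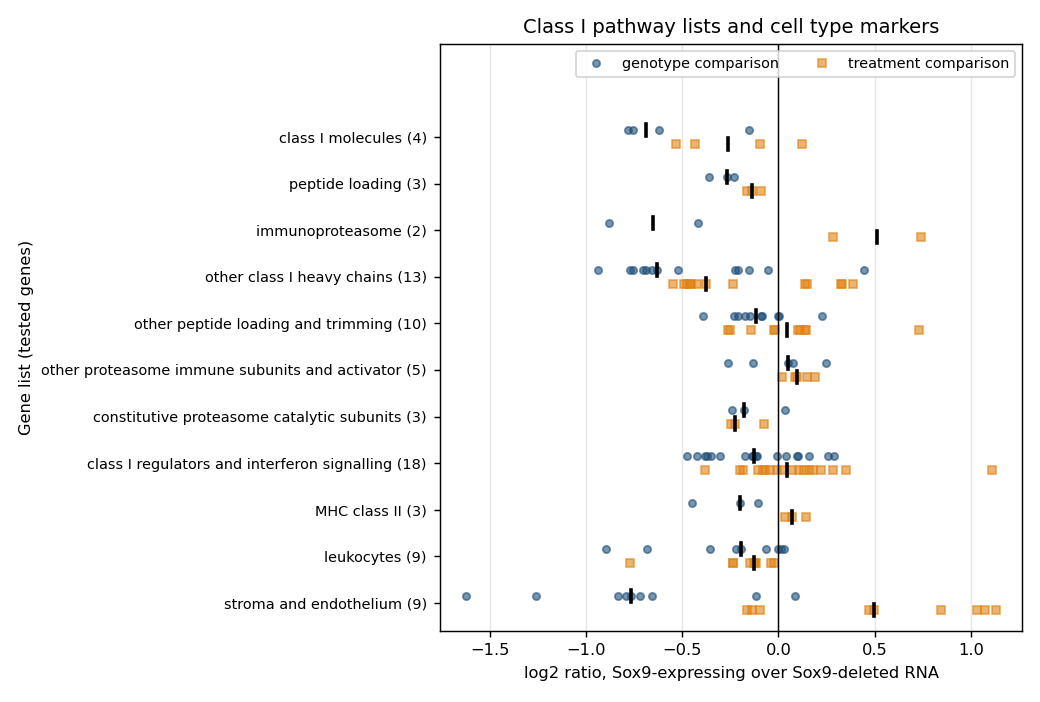
log2 ratio of each tested gene of the member groups, the other class I pathway lists and the leukocyte and stroma markers, with circles for the genotype comparison, squares for the treatment comparison and a black bar at each median; the number of tested genes is in parentheses. The other heavy chains center at -0.63 and -0.38 (the latter at -0.03 from the array's median under median centring), and the immunoproteasome and stroma lists lie on opposite sides of 0 in the 2 comparisons.

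Leukocytes carry much class I, so their markers were read beside H2-K1 and H2-D1. Ptprc (CD45), which defines leukocytes, was not well above background in any RNA, nor were Itgam, Emr1 and Cd3e. Of 15 markers 9 were tested, and 7 were below 0 (4 with median centring) and 0 above 0 on both arrays. Of all tested genes, 34.4% were below 0 (10.3% with median centring) and 33% above 0 on both. C1qa and C1qb were well above background in all RNAs and gave -0.36 and -0.24, and -0.22 and -0.24. The list's summed brightness, with the untested markers included, was 3123 and 4927 in the Sox9-expressing and 4649 and 5590 in the Sox9-deleted RNAs. Lyz2, the brightest, held 1452, 3185, 2708 and 3524 of it in the same order. Cd68, a lysosomal protein of macrophages and other cells, was the lowest at -0.69 and -0.77 (mean -0.73 ± 0.06, SD, limma adjusted p = 0.0979), Cd79a the highest with a mean of -0.01, and Lyz2 gave -0.90 and -0.15. Of 11 MHC class II genes, which mark antigen-presenting cells, 3 were tested and 6 were not well above background in any RNA. H2-Ab1 gave -0.45 and 0.07, the lowest mean of the list, and H2-DMb1 -0.20 and 0.14, the highest. The part of leukocyte RNA in the values of H2-K1 and H2-D1 was not tested.

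The labeled cell type was checked with 8 prostate epithelium markers. All 8 were well above background in all RNAs, and 4 were above 0 and 3 (2 with median centring) below 0 on both arrays. Of all tested genes, 33% were above 0 and 34.4% (10.3% with median centring) below 0 on both. The keratins Krt5 and Krt14 and the basal regulator Trp63 were at least 2-fold higher with Sox9 on both arrays. Their means were 2.02, 1.96 and 1.60. At least 2-fold apart in the same direction on both arrays were 0.562% of all tested genes. The luminal keratin Krt18, the adhesion protein Cdh1 and the claudin Cldn7 had means of -0.65, -0.32 and -0.82. Epcam was above 0 on both arrays, at 0.46 and 0.37, and the keratin Krt8 gave 0.01 and -0.74. Sox9 itself gave means of 2.53 and 1.22 at 2 probes and -1.11 at the other.

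The direction for H2-K1 and H2-D1 was followed through the 7 settings that make ratios of their own. In 1 of these, arrays scaled to 1 spread, all ratios of an array are multiplied by the same factor, so no sign could change. The 6 tested probes of H2-K1 and H2-D1 were below 0 on both arrays in 36 of 42 probe-by-setting values. The other 6 were all with median centring, in the treatment comparison. That setting moved the median of all tested probes of the treatment array to 0.38, and relative to that median H2-K1 was at -0.04 and H2-D1 at -0.09, with -0.46 and -0.57 in the genotype comparison. Under the other 6 settings, which share the same 2 arrays, H2-D1 ranged from -1.03 to -0.74 in the genotype and from -0.72 to -0.39 in the treatment comparison, and H2-K1 from -0.85 to -0.62 and from -0.55 to -0.32. The lowest adjusted p of the 6 probes over these settings, no filter and the methods' t-test was 0.101.

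**Figure D5:**
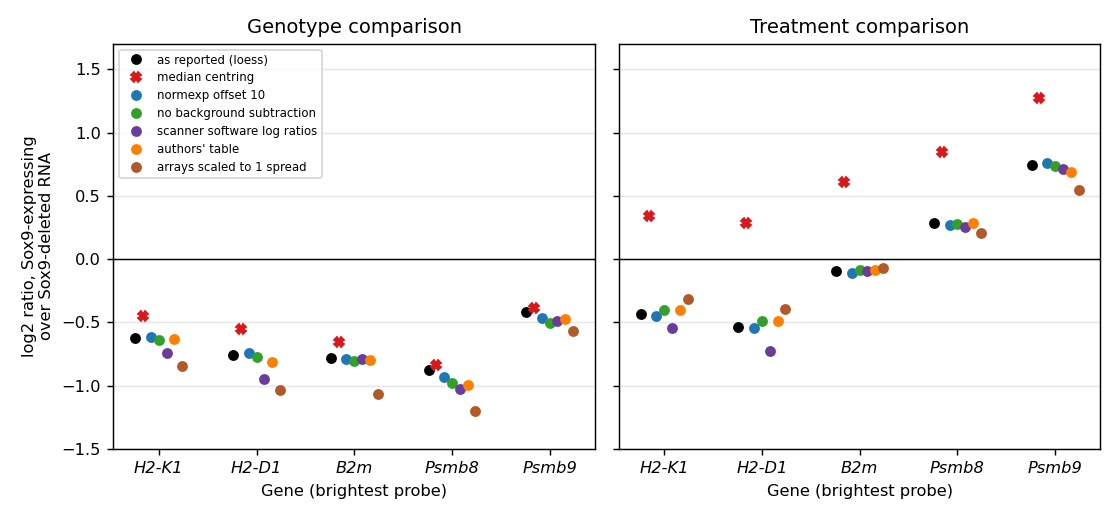
log2 ratio of H2-K1, H2-D1, B2m, Psmb8 and Psmb9 in the genotype (left) and treatment comparison (right) under 7 ways of making the ratios, 1 color each, with crosses for median centring. In the treatment comparison H2-K1 and H2-D1 lie below 0 with 6 of the settings and above 0 with median centring, while Psmb8 and Psmb9 keep opposite signs on the arrays with all 7. Scaling the arrays to 1 spread cannot change a sign.

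Promoter sequence was available from RefSeq (GRCm38.p6) for 8 of the 9 genes, Tap2 being the exception. In each window of 250 bases before to 50 after a start site, 4 motifs were searched on both strands, and no member window held more than 1 of them. A kappaB site, of the kind that NF-kappaB binds in class I enhancers and given by the capitals of H2-K1 and H2-D1 below, was in both H2-K1 windows and in the H2-D1 window, and in 0.107% of all 32851 windows. An interferon-stimulated response element, searched as 2 copies of GAAA with any 2 bases between them, was in the B2m and H2-T23 windows and in 3.44% of all. Only this exact form was counted, so windows without it, those of H2-K1 and H2-D1 included, may hold an element spelled otherwise. TTCNNNGAA, a gamma-activated site, was in the Psmb8 window and in 8.3% of all. AACAAT, a core of Sox sites, was in none of the 9 member windows and in 10.7% of all. The 250 bases before the start sites of H2-K1 and H2-D1, the pair with the lowest means, and of Psmb8, which had opposite signs on the arrays, are given 5′ to 3′ on the strand of the gene, with the motif in capitals.
H2-K1: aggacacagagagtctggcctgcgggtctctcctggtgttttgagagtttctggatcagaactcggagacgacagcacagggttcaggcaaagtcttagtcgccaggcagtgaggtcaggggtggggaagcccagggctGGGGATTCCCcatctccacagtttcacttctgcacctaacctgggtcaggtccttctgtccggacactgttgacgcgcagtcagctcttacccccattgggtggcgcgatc
H2-D1: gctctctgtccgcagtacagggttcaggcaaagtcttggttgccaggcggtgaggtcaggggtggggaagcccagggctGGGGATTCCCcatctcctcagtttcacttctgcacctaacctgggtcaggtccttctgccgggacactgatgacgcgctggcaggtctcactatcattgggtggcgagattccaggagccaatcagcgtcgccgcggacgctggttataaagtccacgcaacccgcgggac
Psmb8: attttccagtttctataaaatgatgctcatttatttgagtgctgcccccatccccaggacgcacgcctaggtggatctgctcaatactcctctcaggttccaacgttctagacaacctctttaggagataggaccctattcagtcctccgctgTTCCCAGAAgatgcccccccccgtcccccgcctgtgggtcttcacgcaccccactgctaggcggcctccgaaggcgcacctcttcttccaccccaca
In GRCm38.p6 these lie at chr17:34000348-34000597 on the minus strand, chr17:35262844-35263093 on the plus strand and chr17:34197945-34198194 on the plus strand, and their motifs begin 111, 171 and 97 bases before the start site. The windows of Psmb9 and Tap1, which are read in opposite directions, share 275 bases and hold none of the 4 motifs, and Tap1 gave -0.27 and -0.14 where Psmb9 gave -0.42 and 0.74. A match is a match of letters and does not show that a factor binds.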

How the data were processed

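Agilent whole mouse arrays each carried a Cy5- and a Cy3-labeled RNA. The authors' scanner software, Agilent Feature Extraction 10.5.1.1, gave the deposited mean intensity and local background intensity of each spot and a deposited log10 ratio of Cy5 over Cy3. The authors also deposited log2 ratios, so identified by their slope on the log10 ratios (3.12 and 3.14). How these were made is not given in the sources used here.

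Intensities were background corrected in limma 3.58.1 (R 4.3.3; normexp, offset 50). Control spots (1639 of 45018) and outlier spots were left out, ratios were loess normalized within arrays, and spots of a probe were averaged. Brightness was taken after Aquantile normalization. Probes marked as well above background on both arrays, in Cy5 or in Cy3, were tested with lmFit and eBayes against 0 (2-sided, Benjamini-Hochberg over 22731 probes, 1 residual and 2.8 prior degrees of freedom). The brightest probe stood for a gene. With 2 arrays, their number limits the precision. The fit was tested on simulated data.

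Alternatives were median centring, an offset of 10, no background subtraction, the software's log ratios, the authors' log2 ratios, arrays scaled to 1 spread, no filter on dim probes, the mean over probes, the methods' t-test (paired, two-tailed) and leaving out each array. From each list, genes past the 2-fold rule or the adjusted p, and otherwise the highest and lowest tested gene, were named. H2-Q2, H2-Q5, H2-Q7, H2-Bl, Krt8, Krt18, Epcam, Cdh1, Cldn7, Col1a1, Col3a1, Cdh5, Kdr, C1qa, C1qb, Lyz2, Psmb10 and markers not above background were named after their values were seen. Some listed genes are not reported here by name. The members and lists were chosen with earlier results of these data known. Other tools were Python 3.11.15, numpy 2.4.6, pandas 2.3.3, data.table (version 1.17.8) and matplotlib 3.10.9.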

Additional observations from a re-analysis of the deposited data

Results flagged for a closer look

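Of the 9 class I genes, 3 had log2 ratios of opposite sign in the genotype and the treatment comparison. The treatment minus the genotype log2 ratio was 0.277 for H2-T23, 1.16 for Psmb8 and 1.16 for Psmb9. With 1 array for each comparison the difference was not tested.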

How the results depend on the processing

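Median centring in place of loess moved the median of all tested probes of the treatment array to 0.38. Without allowing for that shift it gave 0 of the 9 genes below 0 on both arrays, a median over them of 0.603 in the treatment comparison and of 0.00278 over both arrays, and mean log2 ratios of 0.404 for H2-T23, 0.00315 for Tap1, 0.248 for Tapbp and 0.00278 for Psmb8, with 522 of all probes past the adjusted p. Relative to the array medians, 4 of the 9 genes were lower on both arrays. Arrays scaled to 1 spread turned Psmb9 to -0.0135. Leaving out an array gave -0.153 to 0.124 for H2-T23, -0.880 to 0.284 for Psmb8 and -0.421 to 0.742 for Psmb9. The causes were not tested. Over all probes, limma's count past the adjusted p was 68 with the authors' log2 ratios and 21 with no filter, against 2, and 0 with an offset of 10, with no background subtraction, with the software's log ratios and with arrays scaled to 1 spread, where 3509, 4331, 3694 and 3487 had an unadjusted p under 0.05. The methods' t-test called 0 after adjustment and 1930 before. No member probe passed the adjusted p under any of these. Ratios of dim probes, among them Tap1, Tap2, 2 B2m probes and the markers C1qa, C1qb, Cdh5 and Kdr, are limited by signal over background.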
